A study of Caenorhabditis elegans with 9 samples.

Results

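The regions described here are the NanoDam regions of EGL-43 and FOS-1 that lie in the central parts of chromosomes II, III, IV and V of Caenorhabditis elegans. A region was a member if its midpoint fell between 4.88 and 12.02 Mb on II, 3.72 and 10.34 Mb on III, 3.90 and 12.97 Mb on IV, or 5.90 and 16.55 Mb on V. The rule used position alone. It took 1007 of 2479 combined EGL-43 regions (40.6%) and 1025 of 2686 combined FOS-1 regions (38.2%), which is 2032 of 5165 in all. It also took 2409 of the 6045 peaks in the lists of the single replicates (39.9%). The centres add up to 33.5 Mb and the arms of the same chromosomes to 33.9 Mb, with each chromosome taken to end where its last peak ends in the 6 lists. The centre of chromosome I is outside the rule.

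EGL-43 is a zinc finger transcription factor related to the mammalian EVI1 family. FOS-1 belongs to the Fos family of basic leucine zipper proteins, whose members bind DNA as dimers with a partner of the same class. Both are known in C. elegans from the invasion of the anchor cell through the basement membrane. The centres of the worm's autosomes recombine rarely and are rich in conserved and essential genes, while the arms recombine often and are richer in repeats.

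NanoDam marks DNA near a tagged protein: a nanobody against GFP carries the bacterial methylase Dam to a GFP-tagged factor, and the methylated sites are then cut, amplified and sequenced. EGL-43 worms were strain TV27655, with the transgene bmd261 and the allele egl-43(wy1449), and FOS-1 worms were strain TV27857, with bmd261 and fos-1(wy1539). Control worms were strain TV27654, with bmd261 and no tagged factor. Each group had 3 libraries from L3 larvae, the next-to-last larval stage, grown at 25 °C on Dam-negative bacteria. The labels give 3 generations of growth and 24 hours on food for every library.

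All groups carried the same single-copy insertion, in which a dopaminergic promoter drives the fusion of nanobody and Dam. The factors were tagged at their own loci. DNA came from whole worms, about 5000 per library, so the cell type rests on where the promoter is active, and the peak lists hold no measure that checks it. Nothing in the labels says that the numbered libraries came from separate cultures, so the tests below measure the spread between these libraries, which may be technical. Each list compares a tagged library with the control library of its number. EGL-43 and FOS-1 lists of 1 number therefore share a control. The read depth is unknown. GATC density, gene density and gene identity were not analysed here, since no genome of the build was used. Coordinates are those of the authors' peaks, in the build ce10 that the submitters' processing notes name, written 1-based.

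Peaks of both factors were denser in the centres than in the arms in every list as deposited. The 3 EGL-43 lists had 499, 389 and 392 centre peaks, which is 14.9, 11.6 and 11.7 peaks per Mb, against 7.17, 8.999 and 5.40 per Mb in the arms. The centre was thus above the arms in 3 of 3 EGL-43 lists, by 5.55 ± 2.64 peaks per Mb (SD, n = 3), and the ratio averaged 1.85 ± 0.48. The 3 FOS-1 lists had 383, 401 and 345 centre peaks, or 11.4, 12.0 and 10.3 per Mb, against 9.56, 7.97 and 5.96 per Mb in the arms. FOS-1 was also denser in the centre in 3 of 3 lists, by 3.41 ± 1.34 peaks per Mb (SD, n = 3), with a mean ratio of 1.48 ± 0.27. Among peaks at or above the median score of their list, the FOS-1 centre was denser in 2 of 3 lists, with a mean ratio of 1.32, and the EGL-43 centre in 3 of 3. The two-sided exact sign-flip permutation test over lists gave p = 0.25 for each factor, the smallest that 3 lists allow. The design therefore cannot reach 0.05 in any comparison of centre with arms, and over the 15 tests of centre against arms or of factor against factor the lowest Benjamini-Hochberg adjusted p of these exact permutation tests was 0.536.

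Split by chromosome, the centre was denser than the arms in 24 of 24 pairs of list and chromosome. EGL-43 reached its highest centre densities on II, with 15.4, 12.7 and 17.5 peaks per Mb, and on III, with 17.2, 13.4 and 13.3 per Mb. On IV the lists had 13.01, 10.1 and 9.37 per Mb, and on V 14.7, 10.99 and 8.83 per Mb. The means ran 15.2 ± 2.4 on II, 14.7 ± 2.2 on III, 11.5 ± 3.0 on V and 10.8 ± 1.9 on IV (SD, n = 3), and the ranges of neighbours in this order overlap. FOS-1 was more even: 12.3 ± 0.63 on III, 11.8 ± 1.2 on II, 10.99 ± 0.99 on IV and 10.5 ± 1.5 on V (SD, n = 3).

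**Figure D1:**
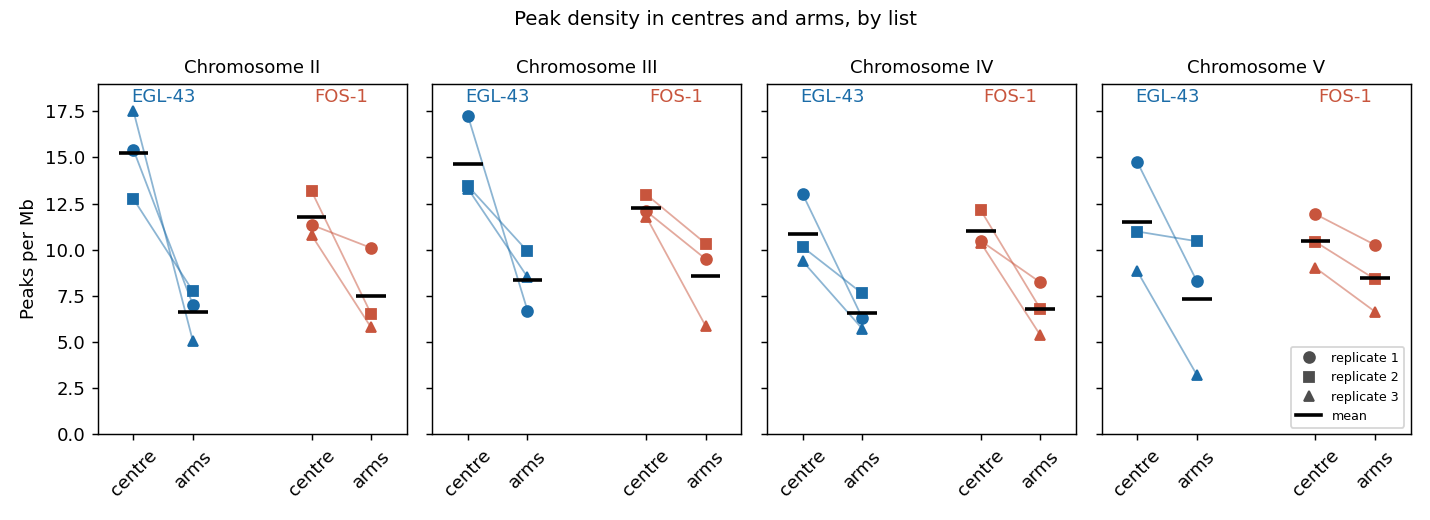
Peak density (peaks per Mb, vertical axis) in the centre and the arms of chromosomes II to V, with a line joining the 2 values of each list and a bar at the mean of the 3 lists of a factor. In all 24 pairs the line runs down from centre to arms; EGL-43 on II and III has the highest centre means, 15.2 and 14.7 peaks per Mb.

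The ratio of centre to arms was largest for EGL-43 on II, 2.43 ± 0.94 (SD, n = 3), and smallest for FOS-1 on V, 1.25 ± 0.10. EGL-43 on V gave 1.85 ± 0.85, and there the arms differed most between lists, with 8.31, 10.5 and 3.23 peaks per Mb. Replicate 3 of EGL-43 had 94 peaks in the centre of V and 33 in its arms. Over the whole of chromosomes I and X, EGL-43 averaged 10.8 ± 1.1 peaks per Mb on I and 11.3 ± 1.2 on X (SD, n = 3). FOS-1 averaged 10.2 ± 0.94 on I and 10.5 ± 1.9 on X. These means lie below those of the pooled centres and above those of the pooled arms, but not in every list: EGL-43 replicate 2 had 12.1 peaks per Mb on I and 11.6 in the centres.

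The lists of the factors overlapped in their number of centre peaks. EGL-43 averaged 427 ± 63 centre peaks and FOS-1 376 ± 29 (SD, n = 3 each). The difference of 50.3 peaks gave p = 0.4 in the two-sided exact permutation test, whose smallest p is 0.1, and per number it was 116, -12 and 47 peaks. The bases covered went the other way, with 658 ± 86 kb for EGL-43 and 704 ± 76 kb for FOS-1 per list, a difference of -45.4 kb (exact permutation p = 0.5). Without replicate 3 the covered length turned to 34.6 kb more for EGL-43. The ratio of centre to arm density was 0.370 higher for EGL-43 than for FOS-1 (exact permutation p = 0.3), and it was not higher in every number: the differences were 0.882, -0.212 and 0.440.

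Within the centres the peaks were spread over the whole length. Cut into windows of 1 Mb from the left boundary, the centres hold 32 full windows, and the 6 lists together had 42 to 101 peaks in a window, with a median of 73.5. Every list had at least 1 peak in every window. By chromosome the medians were 78 on II, 83.5 on III, 62 on IV and 70 on V. EGL-43 had the higher mean in 24 of 32 windows, in 7 of 7 on II, 4 of 6 on III, 5 of 9 on IV and 8 of 10 on V.

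The fullest window lay at 8.72 to 9.72 Mb on III, where EGL-43 had 25, 16 and 19 peaks and FOS-1 had 10, 19 and 12. On II it lay at 5.88 to 6.88 Mb, with 98 peaks over the 6 lists, on IV at 6.90 to 7.90 Mb, also with 98, and on V at 9.90 to 10.90 Mb, with 89. The sparsest window was at 7.90 to 8.90 Mb on V, with 11, 6 and 5 EGL-43 peaks and 8, 11 and 1 FOS-1 peaks. In both windows the ranges of the factors overlap. In the sparsest window the value of 1 came from replicate 3 of FOS-1, the shortest of the 6 lists.

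**Figure D2:**
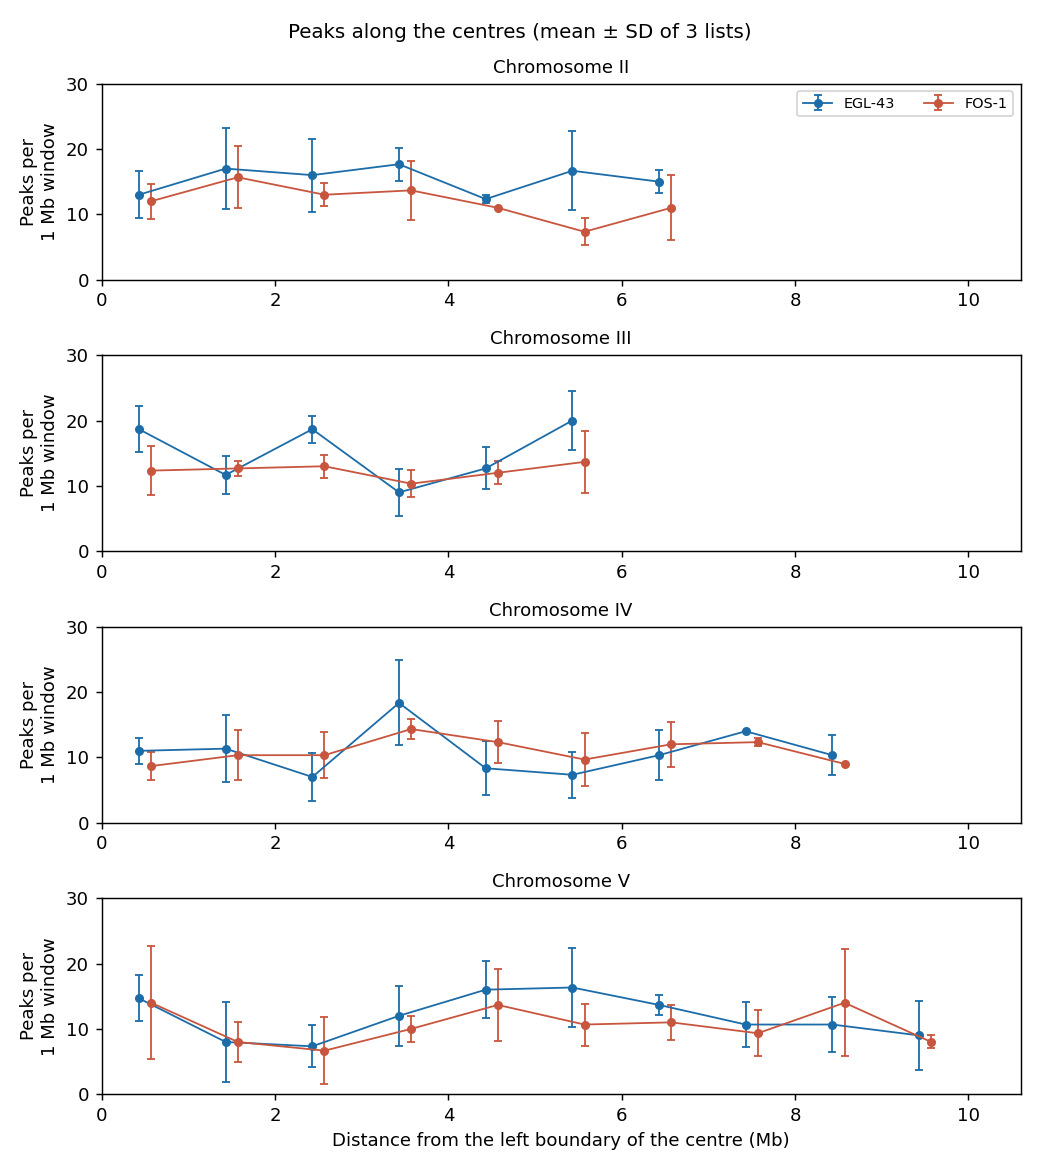
Peaks per 1 Mb window (vertical axis) against distance from the left boundary of each centre in Mb (horizontal axis), as mean and SD of 3 lists for EGL-43 and for FOS-1. The error bars of the factors overlap in 28 of 32 windows, and the EGL-43 mean is higher in 24 of 32 windows.

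Peaks were denser in the inner part of the centres than toward their boundaries in 3 of 3 EGL-43 and 2 of 3 FOS-1 lists, by less than the gap between centre and arms on average. With each centre split into an inner part and 2 flanks of the same total length, the density of the inner part was 1.09, 1.04 and 1.17 times that of the flanks for EGL-43, and 0.915, 1.19 and 1.18 times for FOS-1. Neighbouring centre peaks of a list were a median of 47.9, 56.6 and 44.5 kb apart for EGL-43, against a mean of 80.7 ± 5.7 kb in the arms (SD, n = 3). For FOS-1 the centre gaps had medians of 53.3, 59.8 and 61.98 kb, against 82.5 ± 21.6 kb in the arms. The longest stretch of centre without a peak ran from 541 to 841 kb in the EGL-43 lists and from 493 to 834 kb in the FOS-1 lists.

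EGL-43 peaks were wider in the centres than in the arms in every list, and FOS-1 peaks in 1 of 3. The median EGL-43 peak was 1268, 1450 and 1247.5 bp in the centres and 1112, 1169 and 1040 bp in the arms. The difference was 215 ± 63 bp and was positive in 3 of 3 lists (SD, n = 3; two-sided exact sign-flip permutation p = 0.25, the smallest possible). FOS-1 medians were 1425, 1385 and 1885 bp in the centres and 1542.5, 1145 and 2272 bp in the arms. That difference, -88.2 ± 315 bp, was smaller than its spread (exact sign-flip permutation p = 0.75), and without replicate 3 it was 61.3 bp. Replicate 3 of FOS-1 had the widest medians in both places.

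By chromosome the EGL-43 centre medians were close, 1335 ± 203 bp on II, 1308 ± 211 bp on III, 1380 ± 247 bp on IV and 1346 ± 140 bp on V (SD, n = 3). FOS-1 gave 1574 ± 409, 1638 ± 298, 1552 ± 206 and 1565 ± 283 bp on II, III, IV and V. The wider EGL-43 centre did not hold in every list on each chromosome. It held in 3 of 3 lists on II and III, by only 1.5 bp in replicate 3 on III. On IV and V it held in 2 of 3, with differences of -65.5 bp in replicate 1 on IV and -19 bp in replicate 2 on V. The longest centre peaks of EGL-43 were all on V: 8167 bp at chrV:6226677-6234843 in replicate 1, 7185 bp at chrV:10037318-10044502 in replicate 2 and 6270 bp at chrV:10853821-10860090 in replicate 3. FOS-1 had longer ones, of 19263 bp at chrV:14801826-14821088 in replicate 1, 12145 bp at chrV:6933068-6945212 in replicate 2 and 8670 bp at chrIV:8551600-8560269 in replicate 3. Peaks over 15 kb were otherwise a matter of the arms: the centres held 2, both in replicate 1 of FOS-1 and 37.7 kb in sum, while the arms held 4 in replicate 1 (171 kb) and 2 in replicate 3 of FOS-1 (212 kb).

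The authors gave each peak a score whose scale is not stated, so it was used here only as a rank within its list, as a percentile where 100 is the highest score. Centre peaks ranked like arm peaks for EGL-43, with mean percentiles of 48.7, 51.0 and 50.4 in the centres against a mean of 49.6 ± 2.9 in the arms. The difference was 0.43 ± 2.0 (SD, n = 3; exact sign-flip permutation p = 0.75). FOS-1 centre peaks averaged percentiles of 46.6, 51.2 and 46.6, against 53.4, 47.7 and 54.6 in the arms. FOS-1 was thus lower in the centre in replicates 1 and 3 and higher in replicate 2, a mean difference of -3.79 ± 6.31 (exact sign-flip permutation p = 0.5).

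The top decile of each list by score held 9.42, 10.5 and 10.2% of the EGL-43 centre peaks, against 7.82, 11.5 and 11.5% of the arm peaks. The top decile held 8.88, 10.97 and 6.67% of the FOS-1 centre peaks, against 11.1, 8.15 and 17.3% of the arm peaks. By chromosome the EGL-43 centre means were 52.5 ± 1.3 on II, 46.9 ± 4.4 on III, 51.5 ± 3.7 on IV and 49.4 ± 1.2 on V (SD, n = 3). On III the EGL-43 centre mean was below that of its arms, 51.7 ± 1.5. The differences of centre minus arms there were -4.80, -0.0784 and -9.43 in replicates 1, 2 and 3, so replicate 2 was almost level. FOS-1 centre means were 46.8 ± 3.2, 45.1 ± 3.4, 48.5 ± 2.0 and 51.2 ± 5.4 on II, III, IV and V.

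The authors' false discovery rate (FDR) was under 0.01 for every peak. It was under 0.001 for 58.7, 65.6 and 76.0% of EGL-43 centre peaks, against 58.0, 62.3 and 77.6% of arm peaks (mean 66.0 ± 10.3%). The FOS-1 shares were 62.1, 56.4 and 91.3% in the centres, against 68.2, 51.5 and 87.6% in the arms (mean 69.1 ± 18.1%; SD, n = 3 each). The centre share was above that of the arms in 2 of 3 lists of each factor. Replicate 3 had the highest share for both factors.

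Replicate lists of EGL-43 overlapped more in the centres than in the arms. Of the EGL-43 centre peaks, 32.1, 35.0 and 40.1% overlapped a peak of another EGL-43 list by at least 1 bp, against 22.2, 19.0 and 29.5% of the arm peaks. The difference of 12.1 ± 3.3 percentage points was positive in 3 of 3 lists (SD, n = 3; exact sign-flip permutation p = 0.25, the smallest possible). For FOS-1 the shares were 20.1, 18.7 and 13.3% in the centres, against 15.1, 14.8 and 13.9% in the arms. The FOS-1 difference of 2.78 ± 2.92 points was positive in replicates 1 and 2 (exact sign-flip permutation p = 0.5), and it was -0.185 without replicate 1 and -1.55 without replicate 2. The centres are also where the peaks are denser, and the part of density in these shares was not tested. These shares of peaks are set against the arms alone, with none given for I, X or whole lists. Among EGL-43 regions, the share in 2 or 3 lists was 17.9% in the centres, 16.6% over all nuclear regions and 21.1% on X.

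EGL-43 recurrence in the centres had its lowest mean on IV. In the centres 40.8 ± 4.1% of EGL-43 peaks on III, 38.1 ± 8.4% on V, 37.5 ± 1.3% on II and 26.9 ± 5.3% on IV overlapped another EGL-43 list (SD, n = 3). The range of the lists on IV lay below those on II and III and overlapped that on V, and no test was made between chromosomes. The arms gave 30.9% on III, 14.1% on V, 21.7% on II and 31.4% on IV. IV was thus the chromosome where the centre was above the arms in only 1 of 3 lists. FOS-1 centre means were 19.9% on II, 19.2% on V, 17.0% on IV and 13.001% on III, and on III the arms, at 17.0%, were above the centre in all 3 lists.

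Measured in bases, the same held for EGL-43. The Jaccard index, the bases in both lists over the bases in either, was 0.102, 0.128 and 0.116 for the 3 pairs of EGL-43 lists in the centres, against a mean of 0.0598 ± 0.0147 in the arms (SD, n = 3 pairs that share lists). For FOS-1 the pairs gave 0.0359, 0.0181 and 0.0135 in the centres, against 0.0677 ± 0.0701 in the arms. There 1 pair, replicates 1 and 3, reached 0.149, and these are the lists with the arm peaks over 15 kb.

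At the level of regions, each combined list equals the merge of its 3 replicate lists, for 2479 of 2479 EGL-43 and 2686 of 2686 FOS-1 regions. Of 1007 EGL-43 centre regions, 827 (82.1%) came from 1 list, 115 (11.4%) from 2 and 65 from 3. The 65 are 6.45% of the centre regions (95% Wilson interval 5.10 to 8.14%), against 19 of 633 arm regions, or 3.00% (1.93 to 4.64%). Over all nuclear EGL-43 regions the share in 3 lists was 5.25%. Regions in 2 or 3 lists were 180 of 1007 in the centres (17.9%), against 68 of 633 in the arms (10.7%) and 16.6% of all nuclear regions. On X these were 94 of 445 (21.1%) and on I 70 of 392 (17.9%). The shares in 3 lists were 6.07% on X and 4.85% on I. For regions in 2 or 3 lists the centres thus lay below X and level with I, and only the arms were clearly lower. The intervals cover counting error only, since a combined list has no replicate, and regions of a list are not independent samples of worms.

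FOS-1 regions rarely recurred anywhere. Of 1025 FOS-1 centre regions, 931 (90.8%) came from 1 list, 91 (8.88%) from 2 and 3 from 3. The 3 are 0.293% (95% Wilson interval 0.0996 to 0.857%), against 5 of 728 arm regions (0.687%) and 0.521% of all nuclear FOS-1 regions. Regions in 2 or 3 lists were 94 in the centres (9.17%), against 49 in the arms (6.73%) and 8.12% of all nuclear regions. The FOS-1 centre is thus close to its background on both counts.

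The 65 EGL-43 regions were unevenly spread. They are 18 of 251 centre regions on II (7.17%), 18 of 221 on III (8.14%), 9 of 250 on IV (3.60%) and 20 of 285 on V (7.02%). The arms held 4 of 141 on II, 9 of 147 on III, 4 of 134 on IV and 2 of 211 on V (0.948%). V therefore had the widest gap between centre and arms in this share, and IV the narrowest. Per length the centres held 1.94 such regions per Mb and the arms 0.561. The window at 5.72 to 6.72 Mb on III held the most, 6, and 5 of the 32 windows held none.

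**Figure D3:**
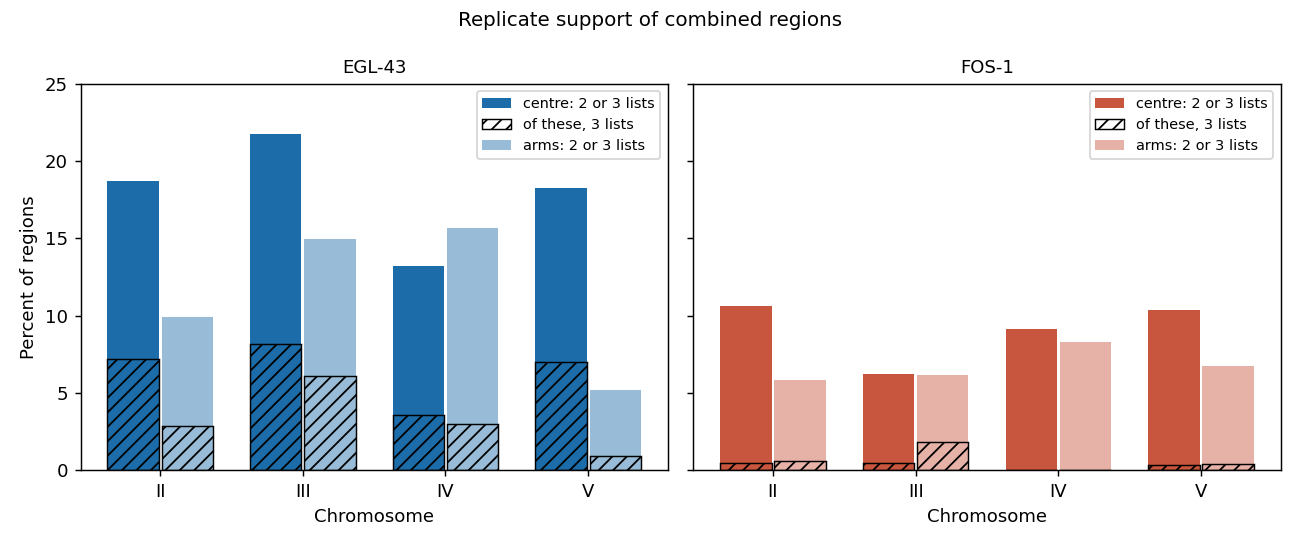
Percent of combined regions found in 2 or 3 lists of their factor (bar height, from 0) and, hatched, in 3 lists, for centre and arms of each chromosome. EGL-43 centre bars stand at 18.7, 21.7, 13.2 and 18.2% on II, III, IV and V, above the arms on all but IV, and each is above the FOS-1 centre bar of its chromosome, at 10.62, 6.19, 9.16 and 10.3%.

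A region in 3 lists need not have a base that all 3 share, since a merge can chain peaks. Of the 65 EGL-43 regions, 61 had at least 1 base covered by all 3 lists, with a median of 974 shared bases over the 65. Recurrent regions were wide. The median width was 2662 bp for EGL-43 centre regions in 2 or 3 lists and 1157 bp for those in 1 list. For FOS-1 these were 2850.5 and 1544 bp. Merging widens regions by construction, so peaks before merging are the fairer measure: EGL-43 centre peaks that overlapped another EGL-43 list had medians of 1699.5, 1751.5 and 1575 bp, against 1146, 1259 and 1055 bp for those that did not. FOS-1 gave 1555, 1741 and 1720.5 bp, against 1419, 1310.5 and 1912 bp, so replicate 3 of FOS-1 went the other way. The part of width in these overlaps was not tested.

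Recurrent EGL-43 centre peaks also ranked higher by score. Their mean percentiles were 55.0, 56.8 and 58.3, against 45.8, 47.8 and 45.1 for centre peaks seen in 1 list. FOS-1 gave 39.0, 57.4 and 50.9, against 48.5, 49.8 and 45.95, with replicate 1 going the other way. These are descriptions with no test.

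Among the 65 EGL-43 regions in 3 lists, the mean percentile over lists had a median of 64.1 and ran from 18.8 to 94.2. The median was 75.3 on II, 65.4 on V, 61.0 on III and 48.2 on IV. The highest was chrV:10036915-10047330, at percentiles of 98.8, 91.5 and 92.1 in EGL-43 replicates 1, 2 and 3. It is 10416 bp long, with 4373 bp covered by all 3 lists. FOS-1 had peaks there in replicate 1, at percentile 11.7, and in replicate 2, at 91.1. Next on V came chrV:6226100-6234843, at EGL-43 percentiles of 93.1, 67.3 and 96.4, which holds the longest centre peak of EGL-43 replicate 1. FOS-1 ranked it at 69.5 in replicate 1 and 70.9 in replicate 3. The third on V, chrV:10173773-10178341, ranked at 51.1, 95.7 and 89.2 for EGL-43, and at 97.2 and 12.0 in FOS-1 replicates 2 and 3.

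On IV the highest was chrIV:7405213-7409567, with EGL-43 percentiles of 92.7, 87.0 and 88.9. Its neighbour in rank, chrIV:5751905-5754907, stood at 86.004, 89.4 and 87.0 for EGL-43, the smallest spread among the regions named here in 3 EGL-43 lists (SD 1.8). FOS-1 placed that region at 11.01 in replicate 1 and 98.3 in replicate 2. The third, chrIV:10251466-10254067, ranked lower and less evenly, at 68.1, 81.8 and 25.9 for EGL-43.

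On II the leading region was chrII:8312509-8317694, with EGL-43 percentiles of 89.9, 80.9 and 91.5 and 1500 bp in all 3 lists. The next, chrII:6940749-6943820, averaged 85.96 ± 3.2 for EGL-43 and had a FOS-1 peak only in replicate 2, at 92.5. The third, chrII:6829675-6837819, stood at 99.1, 94.7 and 62.7 for EGL-43. On III the leading region was chrIII:4446945-4452405, at 91.9, 63.5 and 97.1 for EGL-43, with a FOS-1 peak only in replicate 3, at 11.4. It was followed by chrIII:8286785-8290003, at a mean of 79.1 ± 12.7. The third was chrIII:9237835-9243737, where EGL-43 replicate 1 ranked 35.0, replicates 2 and 3 ranked 94.7 and 98.2, and FOS-1 replicate 2 ranked 99.7. The 12 regions are those with the highest mean percentile on each chromosome, so their ranks are a description.

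**Figure D4:**
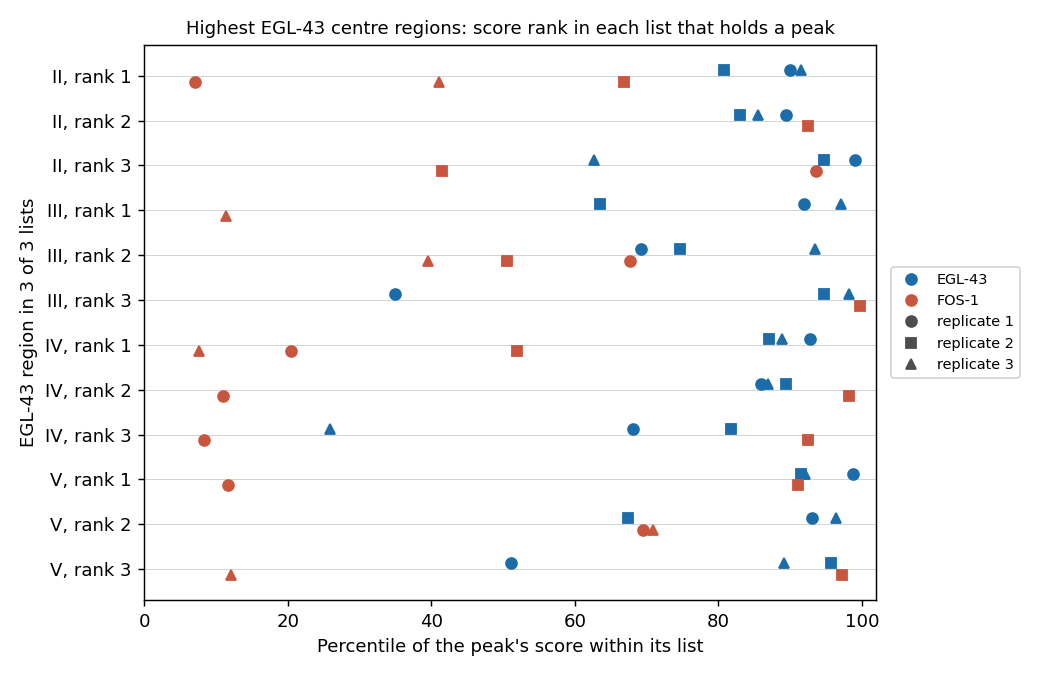
Percentile of the score within its list (horizontal axis, 0 to 100) for the 3 highest-ranking EGL-43 centre regions in 3 lists on each of chromosomes II to V, with 1 row per region and 1 point for each list that has a peak there. EGL-43 points lie between 25.9 and 99.1, while FOS-1 points range from 7.03 to 99.7.

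Of the 65 EGL-43 regions in 3 lists, 16 had no FOS-1 peak, while 24 were met by 1 FOS-1 list, 22 by 2 and 3 by all 3. The share with no FOS-1 peak, 24.6%, is near that of all nuclear EGL-43 regions in 3 lists, 28.5%, and lies below the 7 of 19 in the arms (36.8%). On II 7 of 18 had no FOS-1 peak, on III 3 of 18, on V 6 of 20 and on IV 0 of 9. The highest-ranking of each chromosome without FOS-1 were chrII:9954620-9961245, at EGL-43 percentiles of 85.3, 66.5 and 86.5, chrV:14935537-14938176, at 48.7, 65.8 and 93.8, and chrIII:4444545-4445792, at 41.6, 42.7 and 82.7. The region on III lies just before the leading EGL-43 region of that chromosome.

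The 3 FOS-1 regions in 3 lists all had EGL-43 peaks. The first, chrIII:8284659-8293345, had FOS-1 percentiles of 67.7, 50.5 and 39.6 and peaks in all 3 EGL-43 lists, with 692 bp common to the FOS-1 lists. The second, chrV:10841424-10843116, stood at 32.2, 83.9 and 69.1 for FOS-1 and shared 233 bp, with EGL-43 peaks at 97.2 in replicate 1 and 34.6 in replicate 2. In the last, chrII:7977991-7980804, at FOS-1 percentiles of 32.9, 41.4 and 29.0, the lists had only 1 bp in common. None of the 3 reached the top decile in any FOS-1 list.

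Higher ranks for FOS-1 were found among regions in exactly 2 lists. The highest were chrIV:10816798-10822826, at a mean FOS-1 percentile of 95.9 ± 0.7 in replicates 1 and 2, and chrII:7758285-7762987, at 92.0 ± 6.1 in replicates 2 and 3 (SD, n = 2 lists). In both, the FOS-1 peaks met in 1 bp only, so they adjoin rather than coincide. In contrast chrIV:10524095-10525131 was the same 1037 bp in FOS-1 replicates 1 and 3, at 91.7 ± 0.6, and also had an EGL-43 peak in replicate 1, at 94.6. On V the leading ones were chrV:11074509-11077487, at 91.0 ± 9.8 with 738 bp shared, and chrV:14786872-14800960, at 84.7 ± 18.4 with 2427 bp shared. The others were chrII:7967507-7972694 at 83.5 ± 5.0, with 1 bp shared, chrIII:6739965-6743480 at 75.8 ± 14.2 and chrIII:5403820-5405140 at 74.5 ± 32.9. No EGL-43 peak lay in chrII:7758285-7762987 or chrIII:6739965-6743480.

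The share of regions that overlap the other factor was higher in the centres than in the arms, and near the share over all nuclear regions. Of the EGL-43 centre regions, 359 of 1007 overlapped a FOS-1 region (35.7%, 95% Wilson interval 32.8 to 38.7%), against 182 of 633 arm regions (28.8%, 25.4 to 32.4%) and 33.1% of all nuclear EGL-43 regions. Of the FOS-1 centre regions, 365 of 1025 overlapped an EGL-43 region (35.6%, 32.7 to 38.6%), against 182 of 728 arm regions (25.0%, 22.0 to 28.3%) and 31.2% of all nuclear FOS-1 regions. On X 36.2% of EGL-43 and 33.5% of FOS-1 regions overlapped, and on I 30.1% of EGL-43 and 28.4% of FOS-1 regions. The centres thus did not stand above X for EGL-43. Beside these shares stands the length that each list covers. EGL-43 regions covered 4.89% of the centre bases and 2.48% of the arm bases, and FOS-1 regions covered 6.04% and 5.08%. The part of this coverage in the overlap was not tested.

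By chromosome the share of EGL-43 centre regions with FOS-1 stayed within a narrow range, 37.5% on II, 35.7% on III, 34.4% on IV and 35.1% on V. FOS-1 centre regions varied more, with 41.2% on II, 36.3% on III, 31.1% on IV and 35.0% on V. The share was higher for regions in more lists: 29.0% of EGL-43 centre regions in 1 list overlapped FOS-1, and 66.1% of those in 2 or 3 lists did. For FOS-1 the shares with EGL-43 were 31.8% and 73.4%. Over all nuclear regions these shares were 27.5% and 61.4% for EGL-43, and 28.3% and 63.8% for FOS-1. In the arms they were 25.0% and 60.3% for EGL-43, and 23.1% and 51.0% for FOS-1, so the rise was not particular to the centres. Regions in 2 or 3 lists are also the wider ones, by the medians given above.

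Since lists of 1 number share a control library, the overlap of peaks was also taken within and across numbers. Across numbers, 24.1, 18.5 and 29.3% of EGL-43 centre peaks overlapped a FOS-1 peak of another number, against 12.3, 13.4 and 25.1% of arm peaks. The difference was 6.99 ± 4.10 points, positive in 3 of 3 lists (SD, n = 3; exact sign-flip permutation p = 0.25, the smallest possible). FOS-1 gave 22.2, 27.2 and 18.8% in the centres, against 15.1, 13.3 and 11.4% in the arms, a difference of 9.46 ± 3.81 points in 3 of 3 lists (exact sign-flip permutation p = 0.25). Without replicate 2 the EGL-43 difference was 2.72 points and positive in 1 of the 2 lists left, and it was 4.62 points without replicate 3. Among peaks at or above the median score it was 4.63 points, positive in 2 of 3 lists. Leaving out a number also leaves fewer lists to meet. Peak density and covered length also differ between centres and arms, and their part in these shares was not tested. The shares of peaks, across and within numbers, are set against the arms alone, with none given for I, X or whole lists.

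Within a number, 28.3, 31.9 and 14.5% of EGL-43 centre peaks overlapped the FOS-1 list of their own number, against 25.1, 22.3 and 15.8% of arm peaks. The difference of 3.81 ± 5.47 points was positive in 2 of 3 lists (exact sign-flip permutation p = 0.5). FOS-1 had 36.6, 31.4 and 16.2% in the centres, against 18.8, 25.6 and 13.4% in the arms, a difference of 8.82 ± 7.86 points in 3 of 3 lists (exact sign-flip permutation p = 0.25). Without replicate 2 the EGL-43 difference was 0.924 points, and without replicate 3 it was 6.37. The FOS-1 difference was 4.37 points without replicate 1. Number 3 had the lowest share for both factors. A share across numbers can meet 2 lists and a share within a number only 1, so the Jaccard index sets them side by side: in the centres it was 0.118, 0.151 and 0.0386 within numbers 1, 2 and 3, and 0.0455 ± 0.0192 over the 6 pairs across numbers (SD). In the arms these were 0.0518 ± 0.0311 within numbers and 0.0196 ± 0.0080 across them.

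**Figure D5:**
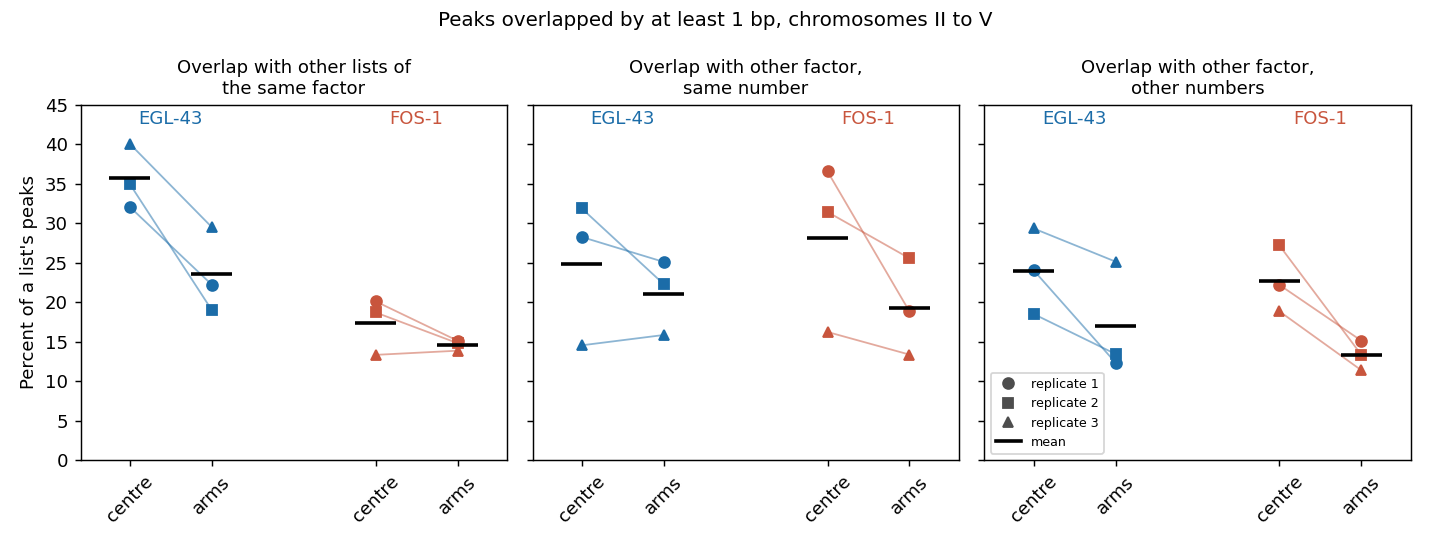
Percent of a list's peaks (vertical axis) that overlap another list of the same factor, the list of the other factor with the same number, and lists of the other factor with other numbers, in centre and arms, with a line joining the 2 values of each list and a bar at the mean. EGL-43 within its factor, FOS-1 with the same number, and both factors across numbers are higher in the centre in 3 of 3 lists. FOS-1 within its factor and EGL-43 with the same number are higher there in 2 of 3.

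With all 6 lists merged, the centres held 1649 regions, and the arms 1174. In the centres 1222 were in 1 list, 262 in 2, 91 in 3, 44 in 4, 27 in 5 and 3 in 6. In the arms the counts were 946, 167, 38, 15, 6 and 2. Regions in 4 or more lists were 4.49% in the centres, against 1.96% in the arms, 3.33% on I, 3.98% on X and 3.52% over all nuclear chromosomes. Regions in all 6 lists were 0.182% in the centres, against 0.170% in the arms, 0.145% on I, 0.385% on X and 0.21% over all. The centres thus lay above the arms and I and below X, but counts of 3 regions in the centres and 2 in the arms are too few to rank these parts. The 3 centre regions with a peak in every list were chrIII:8284659-8293345, chrII:8309162-8317694 and chrIV:7405213-7409567. Only on III did all 6 lists share bases, 692 bp. On II and IV at most 5 lists covered any base. On II the EGL-43 percentiles were 89.9, 80.9 and 91.5 and the FOS-1 percentiles 7.03, 66.8 and 41.0. On IV they were 92.7, 87.0 and 88.9 for EGL-43 and 20.4, 51.9 and 7.57 for FOS-1. In both, each EGL-43 list ranked the region above every FOS-1 list. On III the EGL-43 percentiles were 69.2, 74.7 and 93.5, also above the FOS-1 values of 67.7, 50.5 and 39.6.

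Some peaks had exactly the same ends in different lists. Of the 2409 centre peaks, 115 (4.77%) shared both start and end with a peak of another list, in 56 intervals, and no such interval was in more than 3 lists. The share was 3.14% in the arms and 4.68% of all nuclear peaks, close to that of the centres.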

How the data were processed

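NanoDam DNA from 9 libraries was sequenced on a MinION, per the labels' protocols. The submitters' processing notes name minimap2, SAMtools and the build ce10, and the peak caller is not given in the sources used here. The authors deposited a peak list for each tagged library against the control of its number, with a score and an FDR per peak, and a combined list of positions per factor. The deposited score has no stated scale. The percent values were computed here from the deposited positions. Members and lists were chosen with earlier results of these data known.

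Peaks were assigned by midpoint, overlap meant at least 1 bp, and ties in score took their mean rank. The regions named are the 3 highest by mean percentile per chromosome among EGL-43 regions in 3 lists, the highest such region without FOS-1, all FOS-1 regions in 3 lists, the 2 highest per chromosome in 2 lists, those in all 6 lists, and the longest peak of each list. Where a region held several peaks of a list, the highest score was taken. Centre and arms were compared by an exact sign-flip test over 3 lists and factors by an exact permutation test of 3 against 3. Python 3.11.15, pandas 2.3.3 and scipy 1.17.1 were used, and the code was tested on simulated data. Alternatives were a stricter FDR, the higher-scoring peaks, other boundaries, other overlap rules, removal of peaks over 15 kb, each replicate left out, and the replicate block. Fixed gene lists and sequences were not run, since no annotation of the build was used here.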

Additional observations from a re-analysis of the deposited data

How the results depend on the processing

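Over 21 results and 12 alternative settings, 174 values were computed: 146 were counted as unchanged, 22 as moved and 6 as changed in sign. For differences and ratios between centre and arms or between factors, unchanged means only that the direction held. Such values could lie outside the spread of lists. The EGL-43 difference in overlap across numbers, 6.99 ± 4.10 points (SD), fell to 2.72 points without replicate 2 and was counted as unchanged. The mean ratio of centre to arm density stayed above 1 in every setting run, from 1.57 to 2.12 for EGL-43 and from 1.32 to 1.62 for FOS-1, where the value of 1.32, with peaks at or above the median score, had the denser centre in 2 of 3 lists. EGL-43 recurrence stayed higher in the centres, by 9.37 to 14.2 points, and the mean overlap across numbers by 2.72 (without replicate 2, in 1 of 2 lists) to 8.48 points for EGL-43 and 6.05 to 10.2 for FOS-1. With the FDR under 0.001, EGL-43 had 8.42 and FOS-1 7.76 centre peaks per Mb, 43 EGL-43 centre regions were in 3 lists, and 32.4% of FOS-1 centre regions overlapped EGL-43. With only peaks at or above the median score, EGL-43 had 6.54 and FOS-1 5.73 per Mb, the EGL-43 percentile difference turned to -0.924, 27.0% of EGL-43 and 26.4% of FOS-1 centre regions overlapped the other factor, and 24 EGL-43 and 0 FOS-1 centre regions were in 3 lists; fewer peaks enter by construction. An overlap of at least 50% of the shorter region gave 29.8% for EGL-43 and 29.3% for FOS-1. Using only regions in 2 or 3 lists for both factors gave 39 of 180 EGL-43 regions (21.7%) and 40 of 94 FOS-1 regions (42.6%), which are close counts over unequal totals. Over the replicates left out in turn, differences of centre minus arms ran from -0.558 (without replicate 1) to 1.45 in the EGL-43 percentile, from -1.55 (without 2; -0.185 without 1) to 4.08 points in FOS-1 recurrence, and from -252 to 61.3 bp (without 3) in FOS-1 width. The covered length, EGL-43 minus FOS-1, ran from -91.8 to 34.6 kb (without 3). The cause of these changes of sign was not tested. Leaving out each replicate number in turn gave an overlap of 29.8 to 33.97% for EGL-43 and 29.1 to 36.8% for FOS-1 centre regions, and 95 to 119 EGL-43 and 22 to 52 FOS-1 centre regions in both remaining lists, a looser rule than 3 of 3. The replicate block pairs lists by the control they share, which by construction leaves the mean differences between factors as they were. These were 50.3 peaks (exact sign-flip p = 0.5), -45.4 kb (p = 1) and 0.370 in the ratio (p = 0.5). The smallest possible p is 0.25 for this sign-flip test and 0.1 for the permutation test without pairs. Both are too large for any call, so the block could not have changed one. The planned use of a chromosome length from a reference of the same build was not run, since none was used here. Depth and signal behind each list are unknown, so no difference in sequencing between libraries could be weighed.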
